A study of Arabidopsis thaliana with 79 samples.

Results

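EXPA7 and EXPA18 are alpha-expansin genes of Arabidopsis thaliana, and their messenger RNA was followed across organs, promoter lines and a short oxygen shortage. Both were found by gene symbol in the probe set annotation. EXPA7 (locus AT1G12560) and EXPA18 (locus AT1G62980) have 1 probe set each, so the members are 2 of 22746 probe sets tested. Neither probe set is annotated to a further gene. Expansins are secreted proteins that loosen the plant cell wall without hydrolysing it, and they are found where walls extend. EXPA7 and EXPA18 are known in Arabidopsis for their expression in root hair cells, the epidermal cells that grow by tip extension into a tubular hair, and EXPA7 takes part in hair elongation. Their promoters carry root hair elements bound by RSL4, a transcription factor of the hair cell programme.

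The arrays came from seedlings of the Col-0 accession, aged 7 days, that carried a FLAG-tagged ribosomal protein, RPL18B, driven by 1 of 13 promoters. Hypoxia meant 2 h in a chamber flushed with argon, control seedlings stayed in air for the same time, and both were then cut into roots and shoots. Polysomal RNA is the RNA that came down with the tagged ribosomes, and total RNA came from the same kind of extract before that step. All groups carry the tagged ribosomal protein, the controls included. A promoter line is meant to sample the cells in which its promoter drives the tag. Whether RNA of other cells came down too was not tested. The 79 arrays form 36 groups: 30 groups of 2 arrays, 5 of 3 and 1 of 4. Roots gave 11 populations, namely total RNA and polysomal RNA of p35S, pSCR, pSHR, pWOL, pGL2, pSUC2, pSultr2;2, pCO2, pPEP and pRPL11C. Shoots gave 8, namely total RNA and polysomal RNA of p35S, pGL2, pRBCS, pSUC2, pSultr2;2, pCER5 and pKAT1. Since pSultr2;2 was measured in air only, 10 root and 7 shoot populations have a hypoxic counterpart.

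From general knowledge, pGL2 marks the non-hair cells of the root epidermis, pCO2 and pPEP the cortex, pSCR the endodermis, pWOL and pSHR the stele, and pSUC2 and pSultr2;2 the phloem, while pRPL11C is active in dividing cells and p35S nearly everywhere. None of these promoters is known as specific to hair cells. Among the genes listed for these promoters, AT1G09750, listed for PEP, stood at 10.25 in root pPEP against 5.96 in root p35S, a log2 difference of 4.29 ± 0.36 (SE, adjusted p = 1.24e-13, limma). AT1G62500, listed for CO2, stood at 4.86 in root pCO2 and 4.70 in root p35S, which differed by 0.16 ± 0.21 (adjusted p = 0.693, limma). FMA, a guard cell gene, was 2.81 ± 0.20 higher in shoot pKAT1 than in shoot p35S (adjusted p = 1.10e-15, limma). The other listed promoter genes were not analysed here, so the cell types of the other root lines, and of pCO2, rest on the promoters' names.

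Values are log2 signals, on which a difference of 1 is 2-fold. Means of groups are given with their SD, and differences with the SE of a model over all arrays. A difference was called where its adjusted p was under 0.05 and its size at least 1 on the log2 scale. Replicates were, by the labels, independent biological experiments, and it is the spread among these that the p-values measure.

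In air, both expansins were root transcripts. In root total RNA, EXPA7 read 9.21, 9.28, 9.24 and 9.00 on the 4 control arrays, with a mean of 9.18 ± 0.13 (SD, n = 4). In shoot total RNA it read 5.11, 5.44 and 5.05, with a mean of 5.20 ± 0.21 (SD, n = 3). All 4 root arrays lay above all 3 shoot arrays, and the difference was 3.98 ± 0.19 (SE), or 15.8-fold (adjusted p = 7.41e-24, limma). EXPA18 read 9.68, 10.47, 10.12 and 10.88 in root total RNA, with a mean of 10.29 ± 0.51 (SD, n = 4). In shoot total RNA it read 5.49, 5.60 and 5.45, with a mean of 5.52 ± 0.08 (SD, n = 3). The organs again did not overlap, and EXPA18 was 4.77 ± 0.24 (SE) higher in root, or 27.3-fold (adjusted p = 6.85e-23, limma). In this comparison 11.4% of all probe sets were called higher in root.

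In shoots the levels were low and even. Over the 17 control shoot arrays EXPA7 ranged from 4.95 to 5.65 with a median of 5.14, and over the 15 hypoxic ones from 5.00 to 5.73 with a median of 5.18. EXPA18 ranged from 4.97 to 5.95 with a median of 5.45 in air, and from 4.97 to 5.85 with a median of 5.30 under hypoxia. The shoot populations thus shared 1 narrow band per gene. Whether these shoot values exceed the background signal of the probe sets is not known, since no detection calls were used here.

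Over the 26 control root arrays EXPA7 ranged from 5.96 to 9.28 with a median of 8.00, and EXPA18 from 6.57 to 10.88 with a median of 8.76. Each root population was set against the mean of the 8 control shoot groups. EXPA7 was called above that mean in 10 of 11 root populations, the exception being pPEP at 0.87 ± 0.19 (adjusted p = 1.03e-04, limma), which missed the size threshold. EXPA18 was called above it in 11 of 11, from 1.63 ± 0.24 in pPEP to 4.85 ± 0.18 in total RNA. Of all probe sets, 5.79% were called above the shoot mean in at least 10 of 11 root populations and 4.29% in all 11.

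**Figure D1:**
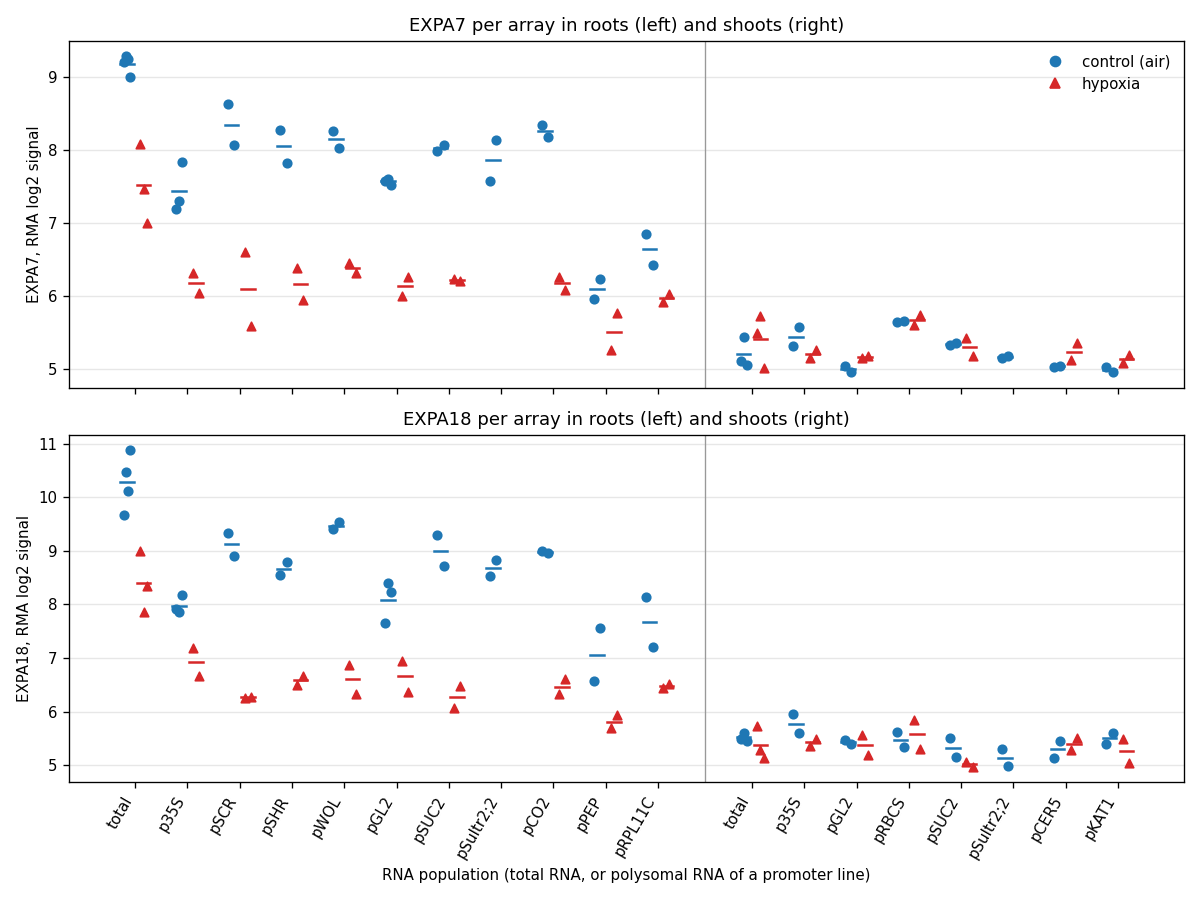
RMA log2 signal (y axis) of EXPA7 (upper panel) and EXPA18 (lower panel) on each array, by RNA population (x axis), with root populations left and shoot populations right of the grey line; blue circles are control arrays, red triangles hypoxic arrays, and short bars group means. In roots every red triangle lies below every blue circle of its population, while the shoot arrays lie between 4.95 and 5.95 in both conditions.

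In bulk RNA of this kind, fewer cells of a type and less RNA per cell cannot be told apart. With that limit, the polysomal RNA of p35S held less of both transcripts than total RNA did. In root p35S in air, EXPA7 read 7.19, 7.30 and 7.83, with a mean of 7.44 ± 0.34 (SD, n = 3). These 3 arrays lay below the 4 total RNA arrays, at a difference of −1.74 ± 0.19 (SE), a 3.35-fold lower level (adjusted p = 1.17e-09, limma). EXPA18 read 7.91, 7.86 and 8.17 in p35S, with a mean of 7.98 ± 0.16 (SD, n = 3), again below all total RNA arrays. Its difference from total RNA was −2.31 ± 0.24 (SE), a 4.94-fold lower level (adjusted p = 4.21e-10, limma). Of all probe sets, 3.13% were called lower in p35S than in total RNA of control roots. Among the 16 other expansins measured, 0 were called lower and 2 higher (EXPA4 by 1.41 and EXPB3 by 1.34), against 2.9% of all probe sets called higher.

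Under hypoxia the polysomal RNA of p35S still held less than total RNA. EXPA7 differed by −1.34 ± 0.23 (adjusted p = 4.12e-05, limma) and EXPA18 by −1.47 ± 0.29 (adjusted p = 3.03e-04, limma), where 2.33% of all probe sets were called lower. The EXPA7 call ended without all arrays numbered replicate 1 (−1.19, adjusted p = 0.108, limma), and with 50 added to linear values its difference of −0.94 missed the size threshold. The p35S minus total difference moved under hypoxia by 0.40 ± 0.30 for EXPA7, with a 95% interval from −0.19 to 1.00. For EXPA18 it moved by 0.83 ± 0.38, with an interval from 0.07 to 1.59. Neither change was called (adjusted p = 1.00 for both, limma), and 0.0264% of all probe sets were. The changes and the 2 differences they come from share their arrays.

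Among the root populations in air, total RNA stood highest for both genes and pPEP lowest. For EXPA7 the order after total RNA was pSCR, pCO2, pWOL, pSHR, pSUC2, pSultr2;2, pGL2, p35S, pRPL11C and pPEP. For EXPA18 it was pWOL, pSCR, pSUC2, pCO2, pSultr2;2, pSHR, pGL2, p35S, pRPL11C and pPEP. Thus the last 4 places were taken by the same populations in the same order for both genes. No pair of neighbours in either order was called. Total RNA exceeded the next population by 0.83 ± 0.22 for EXPA7 (pSCR, adjusted p = 0.00667, limma) and by 0.81 ± 0.27 for EXPA18 (pWOL, adjusted p = 0.0439, limma), both under the size threshold. In these comparisons 1.71% of all probe sets were called higher in total RNA than in pSCR and 1.5% higher than in pWOL. Among the other neighbours adjusted p ran from 0.117 upwards for EXPA7 and from 0.182 upwards for EXPA18 (limma). The adjustment depends on all probe sets of a comparison, so it does not show which steps lie within the spread of replicates. The EXPA7 step from p35S to pRPL11C was 0.81 ± 0.23 (adjusted p = 0.160, limma), in a comparison where 0.0791% of all probe sets were called. Some populations further apart did differ. Of the 45 pairs of polysomal populations in air, which share arrays, 14 were called for EXPA7 and 17 for EXPA18 (limma). Every called pair of EXPA7 included pPEP or pRPL11C. For EXPA18 every called pair included pPEP, pRPL11C, p35S or pGL2. Among these pairs the share of all probe sets called was counted only against p35S, as given below.

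The high polysomal lines were pSCR, pCO2, pWOL, pSHR, pSUC2 and pSultr2;2. EXPA7 read 8.63 and 8.07 in pSCR, 8.34 and 8.17 in pCO2, and 8.26 and 8.03 in pWOL. It read 8.27 and 7.83 in pSHR, 7.98 and 8.07 in pSUC2, and 7.57 and 8.14 in pSultr2;2. These lines overlapped one another, except that pSUC2 and pSultr2;2 lay below pCO2. EXPA18 read 9.41 and 9.54 in pWOL, 9.34 and 8.90 in pSCR, and 9.29 and 8.72 in pSUC2. It read 9.00 and 8.96 in pCO2, 8.54 and 8.83 in pSultr2;2, and 8.55 and 8.79 in pSHR. Both pWOL arrays lay above all other polysomal arrays for EXPA18, which was not so for EXPA7.

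The pGL2 line, which from general knowledge samples the non-hair epidermis, was called against neither p35S nor the mean of the other lines for either gene. EXPA7 read 7.57, 7.61 and 7.52 in control pGL2, with a mean of 7.57 ± 0.04 (SD, n = 3). EXPA18 read 7.65, 8.40 and 8.23, with a mean of 8.09 ± 0.40 (SD, n = 3). Against the mean of the other 8 root lines (p35S not counted) EXPA7 differed by −0.11 ± 0.16 (adjusted p = 0.795, limma) and EXPA18 by −0.49 ± 0.20 (adjusted p = 0.122, limma). Against p35S the differences were 0.13 ± 0.20 and 0.11 ± 0.26. That mean includes the low lines pPEP and pRPL11C. Single lines did differ from pGL2. EXPA18 was called higher in pSCR by 1.03 ± 0.29 and in pWOL by 1.38 ± 0.29 (adjusted p = 0.00956 and 0.00218, limma). Above pPEP, pGL2 was called for both genes, by 1.48 ± 0.23 for EXPA7 and 1.03 ± 0.29 for EXPA18 (adjusted p = 1.58e-06 and 0.00536, limma).

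The low lines were pPEP and pRPL11C. EXPA7 read 5.96 and 6.22 in pPEP, and 6.85 and 6.41 in pRPL11C, below every control array of the other root populations. EXPA18 read 6.57 and 7.56 in pPEP, and 8.14 and 7.20 in pRPL11C, where the upper pRPL11C array overlapped p35S and pGL2. Against the mean of the other lines, EXPA7 was lower in pPEP by −1.77 ± 0.19 (adjusted p = 1.31e-10, limma) and in pRPL11C by −1.16 ± 0.19 (adjusted p = 6.48e-06, limma). EXPA18 was lower in pPEP by −1.65 ± 0.24 (adjusted p = 1.92e-07, limma) and higher in pWOL by 1.06 ± 0.24 (adjusted p = 0.00725, limma). In pRPL11C its difference of −0.97 ± 0.24 (adjusted p = 0.00233, limma) missed the size threshold. So 2 of 9 lines were called for each gene, with pPEP common to both. The share of all probe sets called in that comparison was 4.78% for pSCR, 2.16% for pSHR, 0.567% for pWOL, 0.989% for pGL2, 3.55% for pSUC2, 0.928% for pSultr2;2, 2.88% for pCO2, 11.3% for pPEP and 4.55% for pRPL11C. Leaving out the lower pRPL11C array, replicate 2, took EXPA7 in pRPL11C to −0.94, under the size threshold. The call of EXPA18 in pWOL was lost without either pWOL array, at adjusted p = 0.202 and 0.280 (limma).

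Set against p35S, 1 of 9 lines was called for EXPA7, pPEP at −1.35 ± 0.23 (adjusted p = 5.03e-06, limma). For EXPA18 4 of 9 were called, all higher. They were pWOL at 1.49 ± 0.29 (adjusted p = 3.83e-04, limma), pSCR at 1.14 ± 0.29 (adjusted p = 0.00270, limma), pSUC2 at 1.03 ± 0.29 (adjusted p = 0.00767, limma) and pCO2 at 1.00 ± 0.29 (adjusted p = 0.00823, limma). EXPA7 was higher than p35S by 0.91 ± 0.23 in pSCR and by 0.81 ± 0.23 in pCO2 (adjusted p = 0.00251 and 0.00646, limma), both under the size threshold. The lines share the p35S arrays, so these differences move together. The share of all probe sets called was 8.87% for pSCR, 2.07% for pSHR, 2.86% for pWOL, 5.29% for pGL2, 8.15% for pSUC2, 3.85% for pSultr2;2, 9.05% for pCO2, 14.6% for pPEP and 0.0791% for pRPL11C. Without p35S replicate 1, or without p35S replicate 2, 2 EXPA18 lines were called, and without p35S replicate 3 the count for EXPA7 was 3. The calls of EXPA18 in pSCR, pSUC2 and pCO2 each ended without 1 array of the line itself, in pCO2 without either.

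Both expansins fell in hypoxic roots. Every hypoxic array lay below every control array of its population in 10 of 10 root populations for both genes, a pattern that 1.14% of all probe sets showed. EXPA18 was called lower in 10 of 10 populations, as were 0.0791% of all probe sets. EXPA7 was called lower in 8 of 10, a number that 0.378% of all probe sets reached or passed. The falls ran from 0.59 to 2.26 on the log2 scale for EXPA7 and from 1.06 to 2.87 for EXPA18, with medians of −1.72 and −1.99. Without all arrays numbered replicate 2, which leaves most lines with 1 array per condition, EXPA7 was called in 3 and EXPA18 in 4 of 10. With 50 added to linear values, which shrinks differences between low signals, EXPA7 was called in 6 of 10, losing p35S (−0.88) and pGL2 (−0.998, just under the size threshold). EXPA18 was then called in 7 of 10, losing p35S (−0.81), pPEP (−0.81) and pRPL11C (−0.88). The share of all probe sets called lower was 1.24% in total RNA, 0.857% in p35S, 1.95% in pSCR, 2.3% in pSHR, 2.51% in pWOL, 1.64% in pGL2, 2.25% in pSUC2, 2.86% in pCO2, 2.91% in pPEP and 5.52% in pRPL11C.

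In root total RNA under hypoxia EXPA7 read 8.08, 7.46 and 7.00, with a mean of 7.51 ± 0.54 (SD, n = 3). All lay below the 4 control arrays, at a difference of −1.67 ± 0.19 (SE), a 3.18-fold lower level (adjusted p = 3.03e-09, limma). EXPA18 read 9.00, 7.85 and 8.35, with a mean of 8.40 ± 0.57 (SD, n = 3), also below all controls. Its difference was −1.89 ± 0.24 (SE), a 3.70-fold lower level (adjusted p = 6.01e-08, limma). In polysomal RNA of p35S, EXPA7 fell to 6.31 and 6.04, a difference of −1.27 ± 0.23 (adjusted p = 1.18e-04, limma). EXPA18 fell there to 7.19 and 6.66, a difference of −1.06 ± 0.29 (adjusted p = 0.0183, limma), the smallest of its 10 responses. This last call ended without p35S control replicate 3 (−0.96, adjusted p = 0.0829) or without hypoxic replicate 3 (−0.79, adjusted p = 0.546, limma). It also ended when only root arrays entered the fit (adjusted p = 0.0673, limma) and with replicate numbers as a block (−1.11, adjusted p = 0.0530, limma), which left 9 of 10 populations called for EXPA18. The EXPA7 call in p35S ended without all arrays numbered replicate 3 (−0.93, adjusted p = 0.153, limma).

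In pSCR, pWOL and pSHR the falls were deep. In hypoxic pSCR EXPA7 read 6.59 and 5.58 and EXPA18 6.25 and 6.28. Their differences from air were −2.26 ± 0.25 and −2.86 ± 0.32, or 4.79-fold and 7.24-fold lower levels (adjusted p = 1.46e-09 and 1.54e-09, limma). The pSCR line gave the deepest fall of EXPA7. In hypoxic pWOL EXPA7 read 6.45 and 6.31 and EXPA18 6.86 and 6.34. Here EXPA18 had its deepest fall, −2.87 ± 0.32 or 7.34-fold (adjusted p = 1.35e-09, limma), beside −1.76 ± 0.25 for EXPA7 (adjusted p = 6.61e-07, limma). In hypoxic pSHR EXPA7 read 6.37 and 5.94 and EXPA18 6.50 and 6.67. The differences there were −1.89 ± 0.25 and −2.09 ± 0.32.

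In hypoxic pSUC2 EXPA7 read 6.23 and 6.20 and EXPA18 6.07 and 6.48. The differences were −1.81 ± 0.25 and −2.74 ± 0.32. In hypoxic pCO2 EXPA7 read 6.26 and 6.08 and EXPA18 6.32 and 6.61. The differences were −2.08 ± 0.25 and −2.52 ± 0.32. The adjusted p in pSHR, pSUC2 and pCO2 ran from 5.79e-09 to 3.12e-06 over both genes (limma). The falls in pSUC2 and pCO2 lay in the range of those in pSCR, pWOL and pSHR.

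In hypoxic pGL2 EXPA7 read 6.00 and 6.26 and EXPA18 6.95 and 6.37. The differences were −1.44 ± 0.23 (adjusted p = 7.41e-06, limma) and −1.43 ± 0.29 (adjusted p = 4.27e-04, limma), near each other in size. Without hypoxic pGL2 replicate 2 the EXPA18 call ended (−1.14, adjusted p = 0.0722, limma), and without all arrays numbered replicate 1 the EXPA7 call did (−1.31, adjusted p = 0.0698, limma).

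The shallowest falls of EXPA7 were in the lines where it was lowest in air, and the control arrays enter both quantities. In hypoxic pPEP EXPA7 read 5.25 and 5.76, a difference of −0.59 ± 0.25 (adjusted p = 0.127, limma). In hypoxic pRPL11C it read 5.92 and 6.02, a difference of −0.67 ± 0.25 (adjusted p = 0.0539, limma). Neither was called, and the 95% intervals ran from −1.09 to −0.08 and from −1.17 to −0.16. EXPA18 was called in both: it read 5.68 and 5.93 in hypoxic pPEP, at −1.26 ± 0.32 (adjusted p = 0.00439, limma), and 6.44 and 6.51 in hypoxic pRPL11C, at −1.19 ± 0.32 (adjusted p = 0.00485, limma). The EXPA18 calls ended without pPEP control replicate 2 (−0.76) or pPEP hypoxic replicate 1 (−1.13, adjusted p = 0.0626, limma), and without pRPL11C control replicate 1 (−0.73). In pRPL11C the balance of all calls depended on scaling: 725 probe sets were called higher and 1255 lower, against 859 and 847 after quantile normalization.

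**Figure D2:**
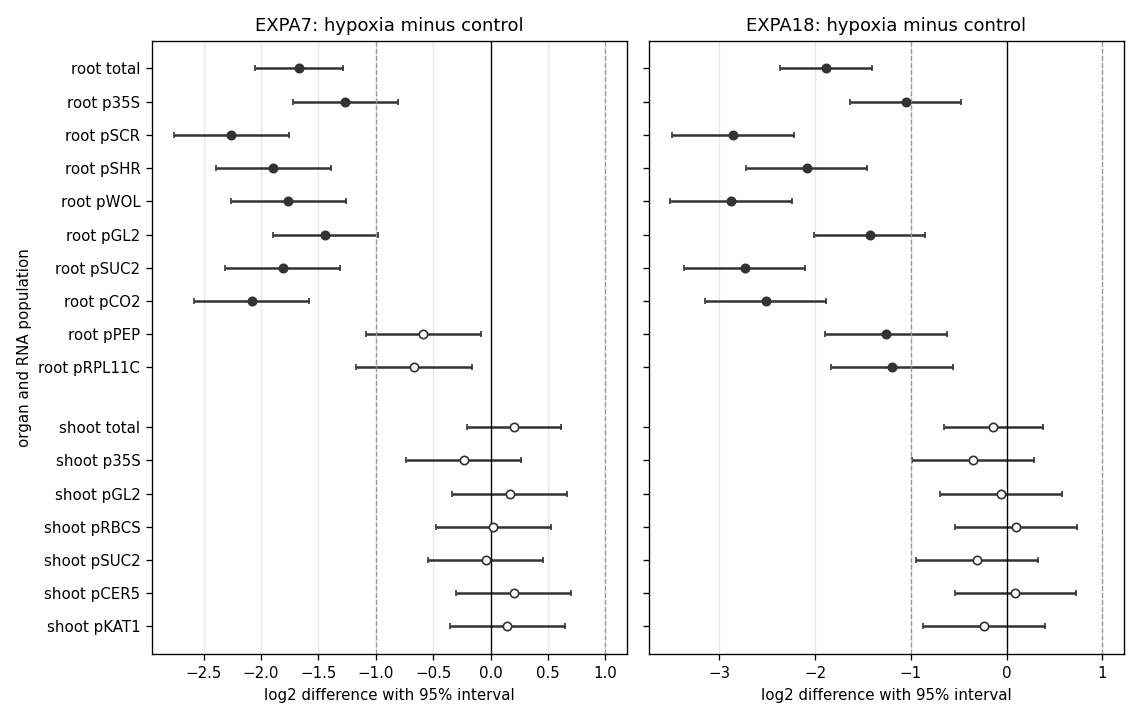
Hypoxia minus control on the log2 scale (x axis) with the model's 95% interval, for 10 root and 7 shoot populations (y axis), EXPA7 left and EXPA18 right; filled points were called, open points were not, and dashed lines mark a difference of 1 in either direction. All root points lie left of 0, 8 of 10 filled for EXPA7 and 10 of 10 for EXPA18, while the shoot points lie around 0.

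Signs of RNA quality were read from the gap between the 3′ and 5′ control probe sets of actin and GAPDH. Under hypoxia the actin gap moved by between −0.81 and 0.02 (log2) over the 10 root populations and the GAPDH gap by between −0.47 and 0.52. The actin gap rose in 1 population and the GAPDH gap in 3. Control and hypoxic arrays did not overlap in the actin gap in 5 of 10 populations and in the GAPDH gap in 3. In root pWOL, where EXPA18 fell deepest, the gaps moved by −0.79 and −0.28 without overlap. In root total RNA they moved by 0.02 and −0.12, with overlap, and the expansins fell there by 1.67 and 1.89. The part of RNA quality in these responses was not tested.

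In the 7 shoot populations 0 responses were called for either gene (limma). EXPA7 responses ran from −0.23 to 0.21, with unadjusted 95% intervals inside −0.74 and 0.70, and EXPA18 responses from −0.35 to 0.10, with intervals inside −0.98 and 0.73. The share of all probe sets called in either direction was 1.81% in total RNA, 1.22% in p35S, 1.37% in pGL2, 1.3% in pRBCS, 2.76% in pSUC2, 3.35% in pCER5 and 3.26% in pKAT1.

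The response of the root was compared with that of the shoot in the 4 populations measured in both organs. In shoots both genes were already low in air, so whether a fall of the root's size could show there is not known. For EXPA7 the root response was more negative by 1.88 ± 0.28 in total RNA (adjusted p = 9.94e-06, limma), by 1.61 ± 0.34 in pGL2 (adjusted p = 0.00355, limma) and by 1.77 ± 0.35 in pSUC2 (adjusted p = 0.00160, limma). In p35S the difference was −1.03 ± 0.34 and was not called (adjusted p = 0.224, limma). For EXPA18 the root response was more negative by 1.75 ± 0.35 in total RNA (adjusted p = 0.00166, limma) and by 2.43 ± 0.45 in pSUC2 (adjusted p = 5.47e-04, limma). In pGL2 and p35S it differed by −1.38 ± 0.43 and −0.71 ± 0.43 (adjusted p = 0.102 and 0.908, limma), and neither was called. With array weights the difference of EXPA18 in pGL2 was called (−1.41, adjusted p = 0.0219, limma), as it was without pGL2 root control replicate 1 (−1.60, adjusted p = 0.0479, limma). The difference of EXPA7 in p35S was called with array weights (−1.15, adjusted p = 0.0318, limma) and with replicate numbers as a block (−1.10, adjusted p = 0.0332, limma). Without all arrays numbered replicate 2 the 5 called differences all missed the threshold, and without those numbered replicate 1 the 3 in pGL2 and pSUC2 did. The share of all probe sets called more negative in root was 0.743% in total RNA, 0.255% in p35S, 0.651% in pGL2 and 0.994% in pSUC2.

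Under hypoxia the root lines came to lie close together. In air the means of p35S and the 8 lines with both conditions spread from 6.09 to 8.35 for EXPA7, a range of 2.26, and from 7.07 to 9.47 for EXPA18, a range of 2.41. Under hypoxia the same 9 populations spread from 5.50 to 6.38, a range of 0.88, and from 5.81 to 6.92, a range of 1.12. The SD over the 9 means fell from 0.78 to 0.24 for EXPA7 and from 0.79 to 0.31 for EXPA18. Without pPEP and pRPL11C it was 0.34 in air and 0.09 under hypoxia for EXPA7, and 0.55 and 0.23 for EXPA18. These spreads were described only, with no test. The hypoxic means lay nearer than those in air to the shoot arrays, which ran from 4.95 to 5.73 for EXPA7 and from 4.97 to 5.95 for EXPA18. What part low signal has in the narrower spread was not tested.

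In the hypoxic order of EXPA7, total RNA was followed by pWOL, pSUC2, p35S, pCO2, pSHR, pGL2, pSCR, pRPL11C and pPEP. In that of EXPA18, it was followed by p35S, pGL2, pWOL, pSHR, pRPL11C, pCO2, pSUC2, pSCR and pPEP. Only the step from total RNA to the next population was called, 1.13 ± 0.23 for EXPA7 (pWOL, adjusted p = 6.54e-04, limma) and, as given above, 1.47 ± 0.29 for EXPA18 (p35S). In hypoxic roots 0.699% of all probe sets were called higher in total RNA than in pWOL. The steps among the polysomal lines had adjusted p of 0.211 and above for EXPA7 and of 0.391 and above for EXPA18 (limma). Of the 36 pairs of polysomal populations under hypoxia, 0 were called for EXPA7 and 1 for EXPA18. That pair was p35S minus pPEP, at 1.12 ± 0.32 (adjusted p = 0.00626, limma). For the hypoxic pairs the share of all probe sets called was not counted.

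Against the mean of the 7 hypoxic shoot groups, EXPA7 was called above in 2 of 10 hypoxic root populations, total RNA at 2.21 ± 0.16 and pWOL at 1.08 ± 0.19 (adjusted p = 2.68e-17 and 2.88e-06, limma). EXPA18 was called above in 7 of 10, from 1.12 ± 0.24 in pCO2 to 3.05 ± 0.20 in total RNA, and missed the size threshold in pSCR (0.92), pSUC2 (0.93) and pPEP (0.46). Of all probe sets, 19.8% were called above the hypoxic shoot mean in at least 2 of 10 root populations and 9.15% in at least 7. In pPEP neither gene passed adjusted p under 0.05 (0.405 and 0.112, limma). With 50 added to linear values only total RNA was called above the shoot mean, 1 population for each gene. Without all arrays numbered replicate 2 the counts were 5 for EXPA7 and 4 for EXPA18, and without those numbered replicate 1 the count for EXPA7 was 1. In the fit as reported, EXPA7 in the lines other than pWOL lay within 2-fold of the shoot mean. Except in pPEP, it still lay above that mean at adjusted p under 0.05 (limma).

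The size of the response differed among the 8 root lines other than p35S. The responses spanned 1.67 for EXPA7 (F-test, adjusted p = 0.00442, limma) and 1.68 for EXPA18 (adjusted p = 0.00989, limma), and 3.39% of all probe sets passed that test. When only root arrays entered the fit, adjusted p was 0.0630 and 0.0934 (limma), so that these differences among lines then missed the threshold. With array weights that of EXPA18 did too (adjusted p = 0.0540, limma), and without all arrays numbered replicate 1 or replicate 2 neither gene passed. Set against the response of total RNA, 0 of 9 polysomal populations differed for either gene, against 4.79% of all probe sets called in at least 1 of the 9. The nearest were EXPA7 in pPEP, less negative by 1.08 ± 0.31 (adjusted p = 0.0846, limma), and in pRPL11C, by 1.00 ± 0.31 (adjusted p = 0.0591, limma). With replicate numbers as a block, EXPA7 in pPEP was called (1.05, adjusted p = 0.0208, limma). All 9 of these differences share the total RNA arrays. Without total RNA control replicate 4 or hypoxic replicate 1, the pPEP and pRPL11C differences of EXPA7 were both called, and without either hypoxic pSCR array 1 line was.

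The log2 signal of EXPA18 fell further than that of EXPA7. The gap between both signals on the same array, EXPA18 minus EXPA7, moved under hypoxia by −0.45 on average over 10 root populations (SD of the populations 0.41), and it fell in 8 of 10. A two-sided permutation test that exchanged condition labels within populations 100000 times gave p = 0.00127 over 45 arrays. The largest moves were −1.11 in pWOL, −0.93 in pSUC2 and −0.67 in pPEP, and the opposite ones 0.21 in p35S and 0.01 in pGL2. Without replicate 2 the move was −0.44 and p = 0.0542 by the same permutation test. Since probe sets differ in how signal follows abundance, the gap compares neither the amounts of both transcripts nor the sizes of their responses.

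Across groups the genes ran together. Over the 21 root group means Pearson's r between EXPA7 and EXPA18 was 0.98 and Spearman's rank correlation 0.92. Over the 11 control root means they were 0.96 and 0.92, and over the 10 hypoxic root means 0.95 and 0.61, where total RNA stood apart from the rest. Over the 15 shoot means r was 0.32 and the rank correlation 0.28. The deviations of single arrays from their group means, which leave out the groups' own differences, correlated with r = 0.29 over the 47 root arrays and 0.08 over the 32 shoot arrays. These are descriptions, since the points share arrays, normalization and, in part, plants.

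**Figure D3:**
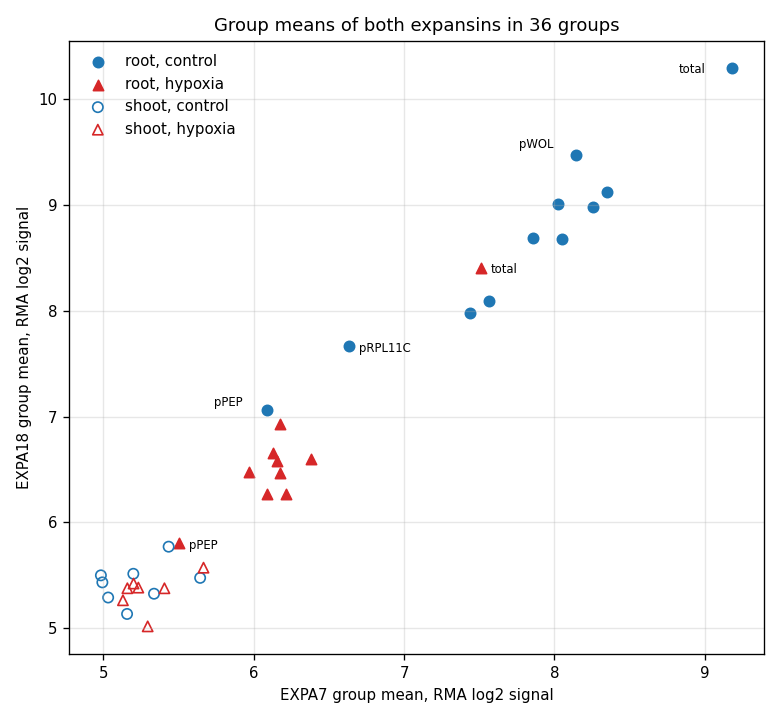
Group mean of EXPA18 (y axis) against that of EXPA7 (x axis), both as RMA log2 signal, for all 36 groups; filled symbols are root and open symbols shoot groups, blue circles control and red triangles hypoxia. Root control groups run from pPEP (6.09 and 7.07) to total RNA (9.18 and 10.29), and the hypoxic root lines gather between them and the shoot groups.

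The named genes whose pattern over the 21 root group means was most like that of the expansins were found by Pearson's r. For EXPA7, AT1G30870 came first (0.98), then EXPA18 (0.98), AT3G49960 (0.97), AT1G34510 (0.97), GH9C1 (0.97), AT4G25790 (0.96), AT4G33730 (0.94), AT3G07070 (0.94), AT2G03980 (0.93) and AT1G04700 (0.92). For EXPA18, EXPA7 came first, then AT1G30870 (0.98), AT1G34510 (0.96), AT4G25790 (0.95), GH9C1 (0.94), AT3G49960 (0.94), AT4G33730 (0.94), AT4G30320 (0.94), AT3G07070 (0.93) and AT1G75620 (0.92). Besides the expansins themselves, 7 genes stood on both lists. Counting unnamed probe sets too, EXPA7 ranked 1 for EXPA18 and EXPA18 ranked 3 for EXPA7. GH9C1 is a glycosyl hydrolase of family 9, and the loci given by number carry no symbol in the annotation used.

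The likeness used the hypoxic as well as the control means, so a fall under hypoxia is part of it. AT1G34510 was called lower in 10 of 10 root populations, with responses from −2.93 to −1.61. AT1G30870 was called lower in 9, GH9C1 and AT3G07070 in 7 each, and AT3G49960 and AT4G25790 in 6 each. AT1G75620 was called lower in 5, and AT2G03980, AT4G30320 and AT4G33730 in 4 each. Of all probe sets, 0.211% were called lower in at least 9 of 10, 0.563% in at least 7, 0.945% in at least 6, 1.31% in at least 5 and 2% in at least 4. AT1G04700, with responses from −0.82 to −0.05, was called in 0. The gene most unlike the rest in its organ pattern was AT2G03980, at 8.32 in root and 9.83 in shoot total RNA in air, while AT1G30870 stood at 11.23 and 5.25.

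Of 33 other members of the expansin family listed, 16 had a named probe set of their own. In each of the 10 root populations between 1 and 3 of these 16 were called lower under hypoxia, with 3 in pSHR, pWOL and pRPL11C. As given above, the share of all probe sets called lower ran from 0.857% in p35S to 5.52% in pRPL11C. The median response of the 16 ran from −0.39 in pSCR to −0.10 in pSHR. It lay below the median of all probe sets, which ran from −0.04 to 0.02, in all 10. In root total RNA 1 of these 16 was called lower and 1 higher, with a median response of −0.20 against 0.01 over all probe sets. In root p35S the counts were the same and the medians −0.13 and 0.02. Of all probe sets, 2.13% were called higher in total RNA and 1.98% in p35S. Over the 10 root populations EXPA15 was called lower in 9 (responses from −3.71 to −1.11), EXPA4 in 5 (from −3.30 to −1.03), EXPB3 in 4 (from −1.64 to −0.47) and EXPA8 in 1.

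The gene called in root total RNA beside EXPA7 and EXPA18 was EXPA15, at −2.13 ± 0.35 (adjusted p = 1.36e-05, limma). It was lower in p35S too, at −1.94 ± 0.42 (adjusted p = 0.00158, limma). EXLA3, an expansin-like A gene, went the other way, by 1.33 ± 0.19 in total RNA and 1.55 ± 0.23 in p35S (adjusted p = 1.25e-06 and 3.88e-06, limma). It was called higher in 10 of 10 root populations, as were 1.05% of all probe sets, and EXLA1 in 1. The other 10 family members were called in 0 populations in either direction. Of these, EXPA16, EXPA21, EXPA24, EXPB5 and EXPB2 stood between 4.56 and 5.44 in root total RNA in air. That is no higher than EXPA18 in shoot total RNA. The rest of them stood between 6.54 and 8.31. Whether the low ones had room to fall was not tested.

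**Figure D4:**
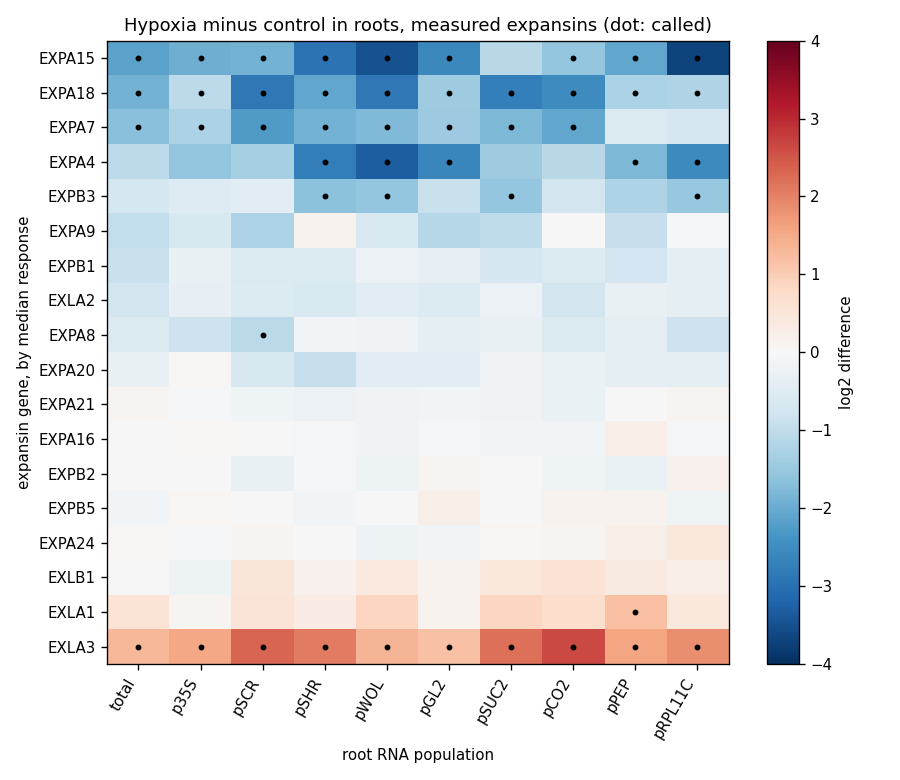
Hypoxia minus control (colour, log2 scale) of EXPA7, EXPA18 and the 16 other measured expansins (rows, ordered by median response) in 10 root populations (columns); a black dot marks a called difference. EXPA15, EXPA18 and EXPA7 hold the top 3 rows, and EXLA3 alone is dotted in all 10 columns with a positive response.

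Of the genes listed for root hair growth, 4 of 49 had a named probe set of their own, and of the root hair regulators 0 of 10. XTH26, which encodes a xyloglucan endotransglucosylase/hydrolase of root hairs, was the gene of this list called in root total RNA, at −1.49 ± 0.15 (adjusted p = 5.62e-11, limma). In p35S it differed by −0.43 ± 0.18 (adjusted p = 0.183, limma), and over the 10 root populations it was called lower in 3, as were 3.16% of all probe sets in at least 3. XTH26 stood in air at 6.17 in root total RNA, 4.91 in root p35S and 4.59 in shoot total RNA. Whether it had room to fall further in p35S was not tested. Like EXPA7 and EXPA18, it was called lower in p35S than in total RNA in air, by −1.26 ± 0.15 (adjusted p = 6.84e-09, limma), while the other 3 measured genes of the list were not called there. FER, the FERONIA receptor kinase, was called lower under hypoxia in 4 root populations, as were 2% of all probe sets in at least 4. CSLD2, a cellulose synthase-like protein, was called in 0. Between p35S and total RNA in air, FER differed by −0.81 ± 0.29 and CSLD2 by −0.92 ± 0.15 (adjusted p = 0.0371 and 1.10e-05, limma). Both missed the size threshold, and the remaining gene of the list went the other way. Over the 4 genes the median response was −0.47 in root total RNA and −0.48 in p35S.

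Of the epidermal patterning list, 2 of 12 genes were measured. TRY, an inhibitor in the hair and non-hair decision, responded between −0.03 and 0.36 and JKD, a zinc finger protein of the ground tissue that acts on that decision, between −0.10 and 0.30 over the 10 root populations. Neither was called in any of them. Of the promoter genes, AT1G09750 was called higher under hypoxia in 3 root populations and AT1G62500 in 1. Their responses ran from 0.18 to 1.44 and from 0.14 to 1.05. The share of all probe sets called higher in as many populations was not counted. The single hypoxia marker measured, AT3G10040 (HRA1), was called higher in 10 of 10, by 5.84 to 7.26, so the hypoxic root arrays carried a hypoxia response in every population. FMA, the single listed marker of another cell type that was measured, was called in 0 of the 10 root populations, with responses from −0.20 to 0.30.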

How the data were processed

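The deposited values are log2 signals of Affymetrix ATH1 arrays, made by the authors with RMA in the R package affy, per the submitters' processing notes. The sources used here do not state whether normalization took the 79 arrays jointly. Replicate arrays correlated between 0.973 and 0.994, and none was a copy of another. Of 22810 probe sets, 64 AFFX controls were left out. Names come from GEO's platform annotation through RefSeq TAIR10.1: 13513 probe sets have 1 gene, 503 several and 8730 no name here. A listed gene was read by its probe set of highest mean. No coordinates or sequences are given, since the array's build is not stated.

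All 79 arrays entered 1 linear model of 36 group means in limma 3.58.1 (R 4.3.3), with variances moderated by eBayes (residual df 43, prior df 4.485), so groups of 2 borrow their spread from all. P-values were adjusted per comparison by Benjamini-Hochberg over 22746 probe sets, and the F-test also asked for a range of at least 1. The fits were tested on simulated data. Named genes are EXPA7, EXPA18, list members called in root total RNA or p35S under hypoxia or given by their counts, measured promoter and patterning genes, and the 10 genes most like each expansin. The members, lists and tests were chosen with earlier results of these data known.

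Deviations of same-numbered control and hypoxia arrays correlated at 0.26, 0.54 and 0.72 in root total RNA and at 0.36, 0.22 and 0.60 in shoot total RNA. Among the root promoter lines these correlations ran from −0.23 in pRPL11C to 0.59 in pSHR. Same-numbered total and p35S arrays correlated at 0.55 and 0.50 in hypoxic roots, and at 0.01, 0.15 and 0.39 in control roots. Differently numbered arrays were not compared, so whether the numbers mark pairs was not tested. The fit as reported used no pairing. Alternatives were quantile normalization, 50 added to linear values, a filter on low means, arrays of one organ, array weights, no minimum fold, a replicate block and leaving out arrays. The values of 1 gene of the root hair growth list are not reported here.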

Additional observations from a re-analysis of the deposited data

Results flagged for a closer look

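By the F-test over all arrays, the hypoxia response differed among the 8 root lines other than p35S for both genes. The range from the deepest to the shallowest response was 1.67 on the log2 scale for EXPA7, from pSCR to pPEP, and 1.68 for EXPA18, from pWOL to pRPL11C. With arrays of one organ neither gene passed (adjusted p = 0.0630 and 0.0934, limma), and with array weights EXPA18 did not (adjusted p = 0.0540, limma).

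The response also differed between organs in 5 of the 8 differences tested. Root minus shoot response was −1.88 in total RNA, −1.61 in pGL2 and −1.77 in pSUC2 for EXPA7. It was −1.75 in total RNA and −2.43 in pSUC2 for EXPA18. The differences of −1.03 in p35S for EXPA7 and of −1.38 in pGL2 and −0.71 in p35S for EXPA18 were not called (adjusted p = 0.224, 0.102 and 0.908, limma). In shoots both genes stood near their lowest values in either condition, so whether a fall of the root's size could show there is not known.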

How the results depend on the processing

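No called difference turned direction under the alternatives run. Of the differences that were not called, 18 turned in at least 1, 6 of them shoot responses and the largest 0.85 in size in the fit as reported. Among them, pGL2 minus p35S in air ran from −0.10 to 0.33 for EXPA18 and from −0.0017 to 0.34 for EXPA7 when replicates were left out, and was −0.0026 for EXPA7 with array weights. After quantile normalization, which shifted the median difference of all probe sets by at most 0.11 in size, EXPA7 differed from the response of total RNA in 1 line and EXPA18 from p35S in 2. With 50 added to linear values EXPA7 was called lower under hypoxia in 6 root populations and EXPA18 in 7, the p35S minus total difference of EXPA7 in hypoxic roots was −0.94, EXPA7 differed from p35S in 0 lines, from the other lines in 1 and from the response of total RNA in 2, and it was above the hypoxic shoot mean in 1 population. EXPA18 then differed from p35S in 2 lines and from the other lines in 1, and was above the hypoxic shoot mean in 1. With arrays of one organ EXPA18 differed from the other lines in 1, and the F-tests over ranges of 1.67 and 1.68 had adjusted p of 0.0630 and 0.0934 (limma). With array weights EXPA18 differed from p35S in 2 lines and its F-test, range 1.68, had adjusted p = 0.0540 (limma). With no minimum fold EXPA7 differed from p35S in 3 lines and from the other lines in 4, and was above the hypoxic shoot mean in 9. The cause of these changes was not tested, except that the last follows from the threshold.

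Leaving out arrays gave counts of root populations called lower from 3 to 8 for EXPA7 and 4 to 10 for EXPA18. Lines differing from p35S ran from 1 to 3 and 0 to 5, from the other lines from 1 to 3 for both genes, and from the response of total RNA from 0 to 2 for EXPA7. Populations above the hypoxic shoot mean ran from 1 to 5 and 4 to 9. The p35S minus total difference of EXPA7 in hypoxic roots ran from −1.60 to −1.06, the F-test range from 1.37 to 2.18 for EXPA7 and 1.62 to 2.51 for EXPA18, and the move of the EXPA18 minus EXPA7 gap from −0.49 to −0.42.

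With replicate numbers as a block, 8 root populations were called lower for EXPA7 and 9 for EXPA18, where p35S was lost at −1.11 (adjusted p = 0.0530, limma), and EXPA7 differed from the response of total RNA in 1 line. Root minus shoot response of EXPA7 in p35S was then called, at −1.10 (adjusted p = 0.0332, limma). The block changed no other call named here, and it could not be estimated for root against shoot levels. In root pRPL11C the deviations of same-numbered arrays correlated at −0.23. Chosen after seeing the data, the crossed pairing gave 2041 calls there, against 2037 with the numbers as labelled and 1980 without a block. A filter on low means removed EXPA7, so it was run for EXPA18 only.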
